A study of Mus musculus with 39 samples.

Results

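The growth hormone to STAT5 axis in mouse liver is described here by 10 genes, taken by symbol from a list of its receptors, transcription factors, feedback inhibitors, secreted products and repressors. All 10 were found among the 45706 genes listed in every count file. The values come from 39 poly(A) RNA-seq libraries of chow-fed male C57BL/6 mice, made to ask what loss of the transcription factor E47 does to tissues exposed to glucocorticoids, and 30 of the libraries are livers. WT (E47+/+) and E47KO (E47-/-) livers were untreated (5 WT, 6 E47KO), taken after 3 weeks of corticosterone (Cort, 100 µg/ml in the drinking water, 4 and 4), or taken after 3 weeks of dexamethasone (Dex, 10 µg/ml in the drinking water, 2 and 3). White adipose tissue (WAT, 2 WT, 2 E47KO) and skeletal muscle (2 and 3) were also taken after 3 weeks of Dex, and 3 of these mice gave both liver and muscle. A separate experiment used an intraperitoneal injection of 1 mg/kg Dex 1 h before death in 3 E47LKO mice (Albcre/+;E47fl/fl), whose Cre recombinase is driven by the hepatocyte promoter of albumin, and in 3 floxed controls without Cre, of which replicate 1 was E47fl/+ and the others E47fl/fl. Mice of the 3-week Cort and Dex experiments were killed after a glucose tolerance test, and the untreated and injected mice were not. By the paper's methods, mice were fasted overnight for this test and then injected with glucose. E47KO mice lack E47 in every tissue and have no mature B cells.

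Growth hormone is released by the pituitary, in pulses in male mice and more evenly in females. It binds its receptor GHR, whose kinase JAK2 phosphorylates STAT5A and STAT5B, and these enter the nucleus and bind DNA at the palindrome TTCNNNGAA. In liver STAT5 drives *Igf1* and *Igfals*, induces the inhibitors *Cish* and *Socs2* that switch the receptor off again, and sets the difference between male and female livers together with the repressors BCL6 and CUX2. The glucocorticoid receptor (GR) is known to bind STAT5 and to act with it at some of these genes.

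The palindrome was searched in the 250 bases before each annotated start, in RefSeq sequence of GRCm38.p6. There were 18 such windows for 9 of the genes, and *Socs2* had none. The only windows of *Cish* and *Igf1* lie inside their genes, with all 250 bases in exons. The bases upstream of *Cish* and *Igf1* were thus not searched. TTCNNNGAA, which reads alike on both strands, was in 5 windows of 3 genes (*Prlr*, *Igfals*, *Bcl6*), against 7.02% of 32851 windows of the same length over all genes. The E-box CANNTG, the letters bound by E47 and also alike on both strands, was in 13 of the 18 windows, against 66.2% of all windows. Windows that hold the STAT5 letters and no exon are shown, 5′ to 3′ on the strand of the gene, with the matches in capitals. *Bcl6* start 2 holds 3 matches, first bases at -168, -122 and -88 from the start, and 0.0274% of all windows hold 3 or more. The match of *Bcl6* start 1 begins at -118 and that of *Prlr* start 2 at -110. *Bcl6* start 1 lies upstream of the gene (chr16:23988853-23989102, minus strand), and *Bcl6* start 2 (chr16:23981284-23981533, minus strand) and *Prlr* start 2 (chr15:10223656-10223905, plus strand) lie inside their gene, outside exons. A match of letters is a description of the window, not evidence of binding.
Bcl6 start 1: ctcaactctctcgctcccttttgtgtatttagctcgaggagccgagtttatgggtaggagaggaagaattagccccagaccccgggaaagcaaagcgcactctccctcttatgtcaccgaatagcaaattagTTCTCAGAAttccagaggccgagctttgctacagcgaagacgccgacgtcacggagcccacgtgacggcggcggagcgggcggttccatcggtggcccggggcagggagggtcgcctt
Bcl6 start 2: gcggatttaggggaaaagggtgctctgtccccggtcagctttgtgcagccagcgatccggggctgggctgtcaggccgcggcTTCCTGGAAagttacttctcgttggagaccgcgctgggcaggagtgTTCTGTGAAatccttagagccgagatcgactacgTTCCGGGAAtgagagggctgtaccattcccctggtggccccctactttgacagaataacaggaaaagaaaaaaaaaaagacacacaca
Prlr start 2: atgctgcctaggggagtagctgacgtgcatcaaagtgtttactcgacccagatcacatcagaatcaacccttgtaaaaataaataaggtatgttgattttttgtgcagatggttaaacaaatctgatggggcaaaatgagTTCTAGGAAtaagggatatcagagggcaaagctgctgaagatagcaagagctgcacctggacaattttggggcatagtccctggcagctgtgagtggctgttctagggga

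Counts in genes ran from 15513941 to 54560884 per library. Values are counts per 1000000 (CPM) on a scale set over the 30 livers, and folds are on the log2 scale. Summed over 10 hepatocyte markers, the livers held 90985 to 166480 CPM, none of the markers being absent. The summed level of 7 muscle markers in the livers ran from 0.520 to 312 CPM. The targeted gene *Tcf3*, which encodes both E47 and its splice form E12, was at 6.12 to 19.3 CPM in the livers with WT and mutant libraries overlapping in all 4 liver experiments, so gene counts do not check the deletion. In bulk liver, fewer cells of a type and less RNA per cell cannot be told apart. Nothing in the labels ties the replicates of a group to separate cages or litters, so p-values measure the spread between these libraries.

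On mm10 the receptor genes *Ghr* (ENSMUSG00000055737, chr15:3317760-3583492, minus strand) and *Prlr* (ENSMUSG00000005268, chr15:10177238-10349180, plus strand) share a chromosome. *Stat5a* (ENSMUSG00000004043, chr11:100859351-100885169, plus strand) and *Stat5b* (ENSMUSG00000020919, chr11:100780731-100850724, minus strand) are neighbours. *Socs2* (ENSMUSG00000020027) is at chr10:95385362-95417180 on the minus strand and *Cish* (ENSMUSG00000032578) at chr9:107296026-107302784 on the plus strand. *Igf1* (ENSMUSG00000020053, chr10:87858265-87937042) and *Igfals* (ENSMUSG00000046070, chr17:24865997-24882010) are both on the plus strand. *Bcl6* (ENSMUSG00000022508, chr16:23965052-23988852) and *Cux2* (ENSMUSG00000042589, chr5:121856366-122050102) are both on the minus strand. *Cish* overlaps 2 genes of the other strand in exons, which the unstranded counts cannot separate. *Prlr* overlaps the protein-coding gene *Gm21973* of the same strand in exons, which the strand column cannot separate either.

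Levels per kilobase of exon set the order of the genes in liver. Over all 30 livers the median was 66.0 CPM per kb for *Ghr*, the receptor, and 61.1 for *Igf1*, the secreted growth factor. *Igfals*, which encodes the acid-labile subunit that holds IGF1 in the circulation, had 36.7. *Stat5b* stood at 9.43, the prolactin receptor *Prlr* at 7.02, *Bcl6* at 2.51, *Stat5a* at 1.85, *Socs2* at 1.61, *Cish* at 1.54 and *Cux2* at 0.0256. The per-kilobase level of *Stat5b* was above that of its paralog *Stat5a*. These 2 genes are close copies, and how reads that fit both were assigned is uncertain. *Stat5a* shares exon bases with *Stat3* on the other strand, which the unstranded counts cannot separate.

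**Figure D1:**
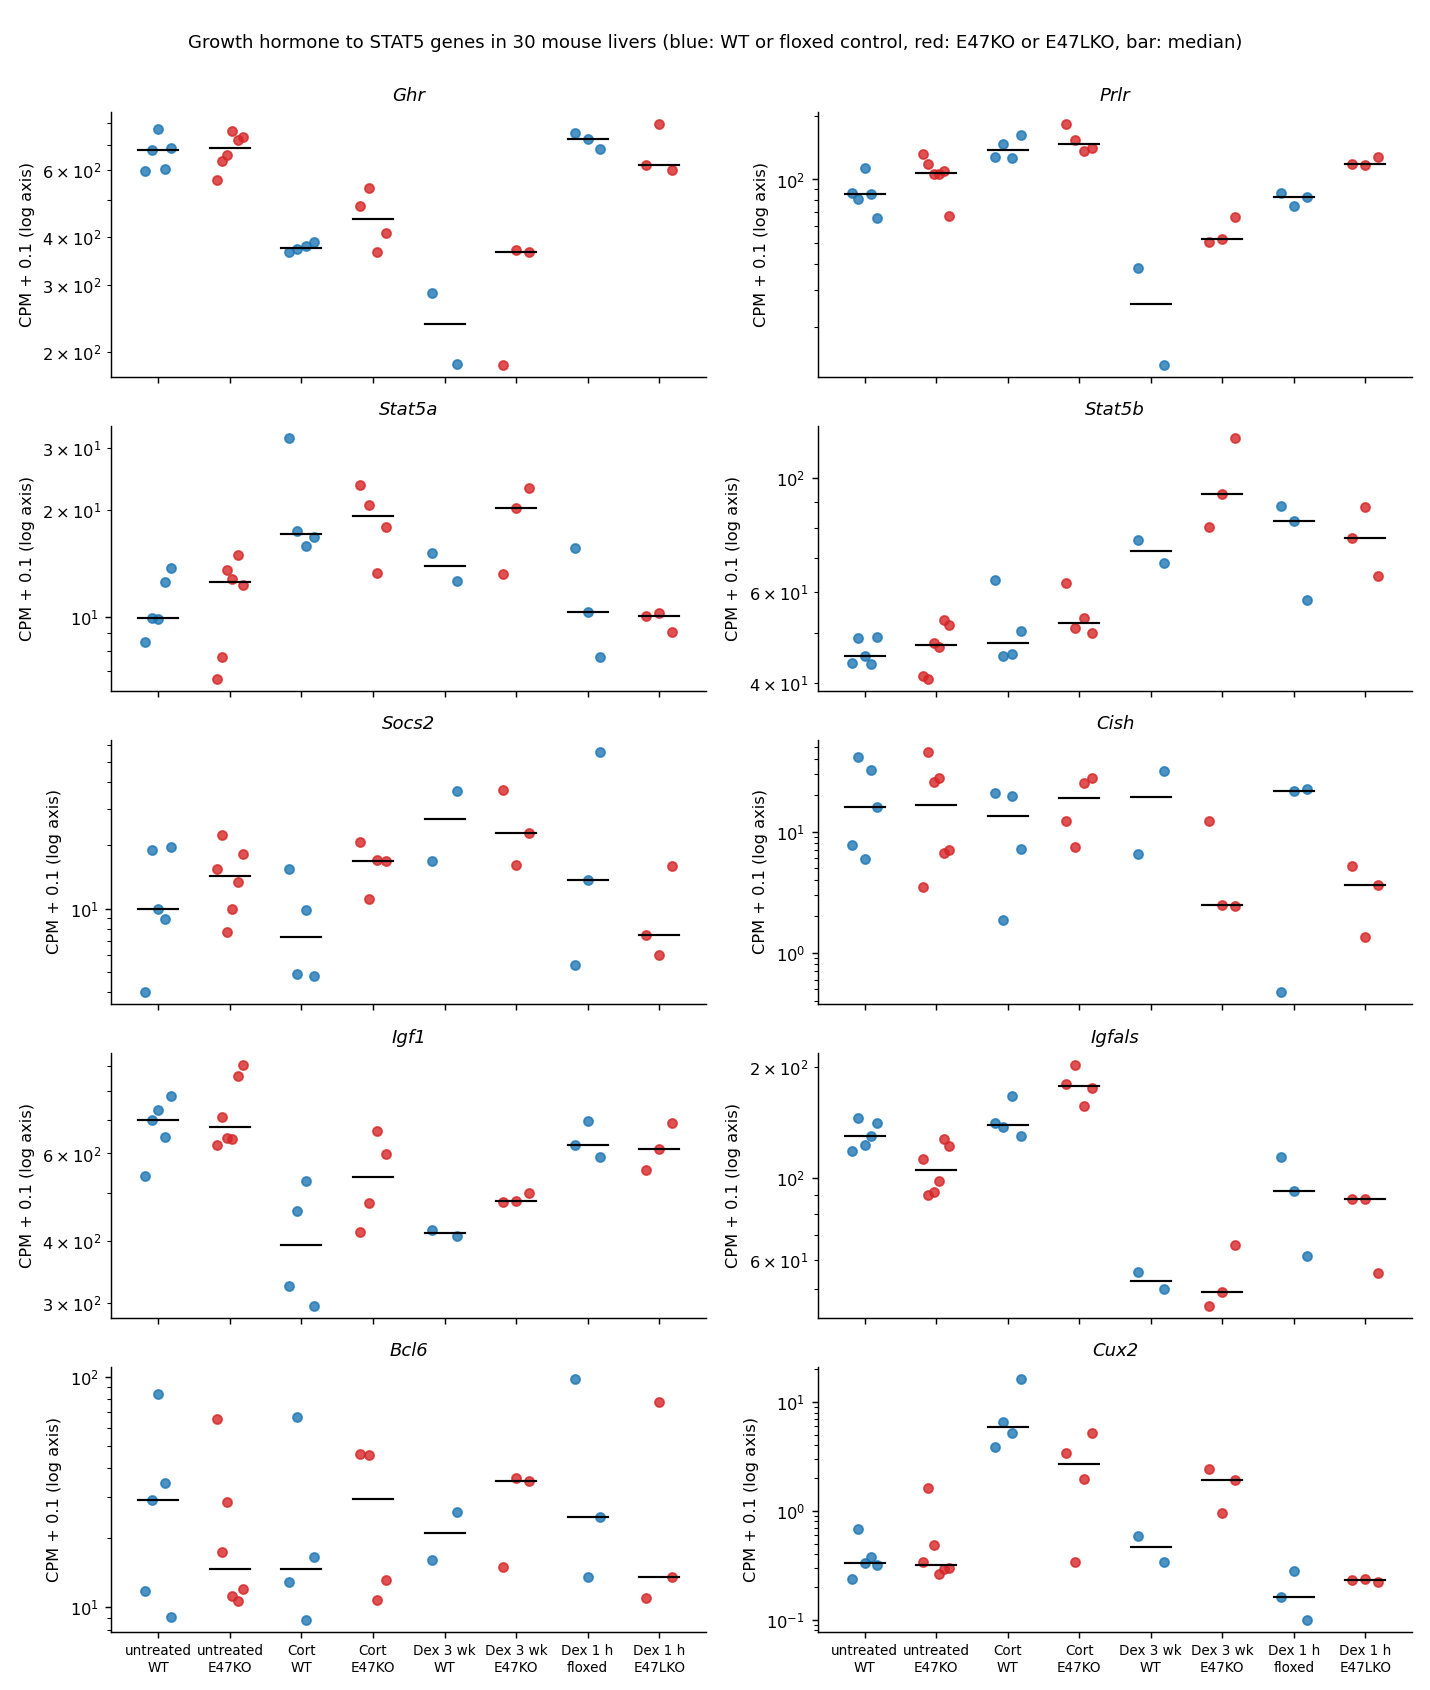
Level of each of the 10 genes in every liver (CPM + 0.1 on a log y axis, 30 libraries in 8 groups on the x axis, points are libraries and bars are group medians). *Cish*, *Bcl6* and *Socs2* scatter widely within groups, while *Ghr*, *Igf1* and *Stat5b* stay close together.

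The inhibitors and both repressors of the axis varied more between mice of the same group than nearly all other genes. The SD within groups of log2(CPM + 0.5) was 1.45 for *Cish*, larger than for 99.8% of the 16227 genes tested. It was 1.17 for *Bcl6* (99.6%), 0.82 for *Socs2* (98.7%) and 0.67 for *Cux2* (97.7%). *Ghr* (0.25), *Igf1* (0.24), *Igfals* (0.24) and *Stat5b* (0.20) were ordinary, with 57.9, 54.9, 56.2 and 34.9% of genes less variable.

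*Cish*, a SOCS-family inhibitor induced by STAT5, spanned 5.84 to 41.0 CPM in the 5 untreated WT livers (7.65, 41.0, 5.84, 32.2 and 15.9). In the 6 untreated E47KO livers the lowest was 3.41, the median 16.4 and the highest 45.6 CPM. The floxed controls 1 h after Dex held 0.371, 21.6 and 22.4 CPM, 60.5-fold between the lowest and the highest. In *Bcl6*, a repressor whose gene STAT5 represses, the highest and lowest untreated WT livers differed 9.43-fold (11.6, 29.0, 84.3, 34.4 and 8.94 CPM). *Socs2*, an inhibitor of the receptor, was at 3.89, 18.9, 9.85, 8.87 and 19.7 CPM there. Replicate 3 of untreated WT had both the lowest *Cish* and the highest *Bcl6*, and the lowest *Socs2* was in replicate 1.

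Pairs of the genes were compared over the 30 livers, on log2(CPM + 0.5) with the group mean removed, for 45 pairs with 100000 permutations within groups. Both Pearson and Spearman passed the Benjamini-Hochberg threshold for 2 pairs. *Stat5a* and *Stat5b* had r = 0.77 and rho = 0.76 (permutation test, adjusted p = 0.0009 and 0.0027), and r = 0.73 without the 2 farthest livers. Within experiments r was 0.80 in the 11 untreated, 0.79 in the 8 Cort and 0.82 in the 6 livers 1 h after Dex. *Ghr* and *Stat5a* had r = 0.54 and rho = 0.55 (permutation test, adjusted p = 0.0216 and 0.0326), 0.50 without the 2 farthest livers, and 0.58, 0.42 and 0.42 within the same experiments. *Cish* and *Bcl6* ran opposite, r = -0.59 and rho = -0.49, but failed the correction (permutation test, adjusted p = 0.0505 and 0.089), with r = -0.47 without the 2 farthest livers. Their within-experiment r was -0.21 in untreated, -0.93 in Cort and -0.84 1 h after Dex. *Socs2* and *Cish* gave r = 0.59 and rho = 0.56 (permutation test, adjusted p = 0.10 and 0.0795), with r = 0.44 without the 2 farthest livers and 0.20, 0.77 and 0.75 within experiments. The 3-week Dex livers are too few (5) for a value of their own.

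**Figure D2:**
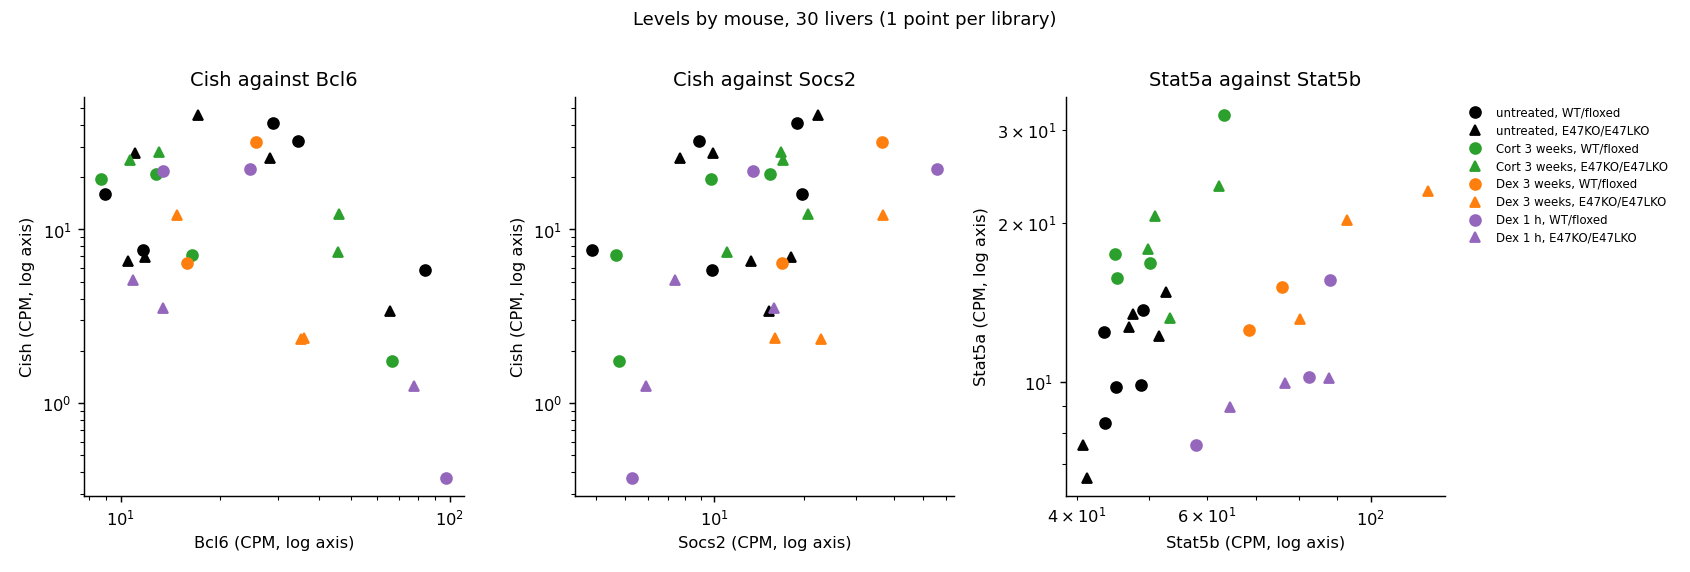
*Cish* against *Bcl6*, *Cish* against *Socs2* and *Stat5a* against *Stat5b* in single livers (CPM on log axes, 1 point for each of 30 libraries, colour by experiment and shape by genotype). The few livers with *Bcl6* above 60 CPM have *Cish* below 6 CPM, with both limits read from these same points. The pair of *Cish* and *Bcl6* did not pass the Benjamini-Hochberg threshold. *Stat5a* and *Stat5b* run together within each experiment.

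Treated livers were set against untreated livers in a fit over all 30. Treatment goes together with the experiment here, so their parts cannot be told apart. The experiments differ in library kit, in the glucose tolerance test with the fast before it and, for the injected mice, in the RNA extraction. The untreated livers are shared between the Cort and Dex comparisons. Some known fasting and clock genes also moved with the experiments. *Cyp4a14*, a fatty acid hydroxylase induced by fasting, was at 6.86 to 322 CPM untreated, 2222 to 4681 with Cort and 2856 to 8306 with 3 weeks of Dex. The clock gene *Arntl* was at 0.540 to 5.90 CPM untreated, 1.84 to 12.4 with Cort, 16.5 to 33.8 with 3 weeks of Dex and 27.3 to 35.1 after 1 h of Dex. Another clock gene, *Per1*, overlapped in WT livers, at 26.7 to 53.8 CPM untreated, 14.2 to 70.1 with Cort and 38.1 to 53.7 with 3 weeks of Dex. Summed over 8 macrophage markers, WT livers held 116 to 326 CPM untreated and 80.9 to 124 with Cort, and E47KO livers 127 to 225 and 48.2 to 106. The part of any of these in the results was not tested.

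With Cort, 5 of the 10 genes passed the threshold of adjusted p 0.05 in WT livers, where 33.2% of all genes tested did. Their median log2 fold change was -0.12, against 0.01 for all genes. In E47KO livers 6 of 10 passed, with 38.9% of all genes, and the medians were 0.23 and -0.01. Groups did not overlap for 5 members in WT and 3 in E47KO, against 23.8 and 25.9% of all genes.

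*Ghr* was at 596, 676, 770.3, 604 and 688 CPM in untreated WT livers and at 366, 372, 378 and 388 CPM with Cort. The groups did not overlap, and the log2 fold change was -0.83 (SE 0.16, with an edgeR adjusted p = 0.00044). In E47KO livers *Ghr* was at 564 to 759 CPM (median 688) untreated and 482, 538, 366 and 410.3 CPM with Cort (log2 -0.59, SE 0.16, adjusted p = 0.0042). *Prlr* went the other way. Untreated WT livers held 86.1, 81.1, 114, 85.0 and 65.6 CPM of it and Cort livers 127, 147, 126 and 162 (log2 0.70, SE 0.20, adjusted p = 0.0088). In E47KO livers the untreated range was 66.8 to 133 CPM (median 108) and the Cort values were 182, 154, 136 and 141 (log2 0.53, SE 0.19, adjusted p = 0.032).

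*Igf1* fell with Cort in both genotypes. WT livers held 541, 701, 736, 647 and 785 CPM untreated and 325, 459, 529 and 296 CPM with Cort (log2 -0.76, SE 0.16, adjusted p = 0.00087). E47KO livers ran from 624 to 902 CPM (median 677) untreated and held 417, 477, 665 and 598 CPM with Cort, so the groups overlapped (log2 -0.44, SE 0.16, adjusted p = 0.027). *Igfals* rose in E47KO livers, from 89.7 to 128 CPM (median 105) to 180.3, 202, 157 and 175 CPM (log2 0.74, SE 0.15, adjusted p = 0.00038). In WT livers it was at 118, 146, 123, 130.1 and 141 CPM untreated and 141, 137, 167 and 129.9 CPM with Cort (log2 0.13, SE 0.16).

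*Stat5a* rose from 8.36, 9.84, 9.77, 12.4 and 13.7 CPM in untreated WT livers to 32.0, 17.4, 15.7 and 16.8 CPM (log2 0.92, SE 0.25, adjusted p = 0.0057), and E47KO livers gave log2 0.74 (SE 0.24, adjusted p = 0.015). *Stat5b* was not called, with log2 0.15 (SE 0.13) in WT and 0.21 (SE 0.13) in E47KO. *Cux2*, which encodes a repressor usually seen in female liver, was the member with the largest fold. Untreated WT livers held 0.137, 0.585, 0.234, 0.274 and 0.221 CPM of it and Cort livers 3.75, 6.43, 5.11 and 16.2 CPM (log2 4.76, SE 0.69, adjusted p = 1.49e-05). E47KO livers had 0.161 to 1.52 CPM (median 0.218) untreated and 3.30, 0.243, 1.85 and 5.11 CPM with Cort (log2 2.54, SE 0.60, adjusted p = 0.0018). *Socs2* (log2 -0.50, SE 0.52), *Cish* (-0.74, SE 0.83) and *Bcl6* (-0.37, SE 0.75) in WT were not called, and their groups overlapped.

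Several of these calls rest on few libraries. The Cort livers fall into lower and higher animal numbers, and only WT replicate 1 with E47KO replicates 1 and 2 are in the lower. Taken alone, the lower numbers ended the WT calls of *Ghr* (adjusted p = 0.052) and *Prlr* (0.29), in a fit that takes the lone WT liver to vary like the other groups. Without WT Cort replicate 1 the WT call of *Stat5a* was lost (adjusted p = 0.055). The log2 of WT *Cux2* was 4.13 without Cort replicate 4 and 3.68 with the lower numbers only. In E47KO the *Stat5a* call was lost without Cort replicate 1. The *Prlr* call was lost without Cort replicate 1, Cort replicate 2 or untreated replicate 6, with either set of animal numbers alone and with the strand column. The *Igf1* call was lost without any of Cort replicate 1, Cort replicate 2, untreated replicate 5 and untreated replicate 6, and with the higher numbers only. *Cux2* in E47KO was at 3.45 without untreated replicate 2. The *Stat5a* call was also lost with the higher numbers only in both genotypes, and the E47KO *Ghr* call with the lower numbers only.

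With 3 weeks of Dex the receptors and IGF genes were all lower. In WT livers 5 of 10 genes passed, against 31.9% of all genes (medians -0.40 and -0.04), and in E47KO livers 7 of 10, against 37.8% (medians -0.16 and -0.02). *Ghr* was at 286 and 186 CPM in WT livers, log2 -1.50 from untreated (SE 0.22, adjusted p = 9.86e-06), and at 185, 371 and 366 CPM in E47KO livers (log2 -1.14, SE 0.18, adjusted p = 1.77e-05). *Prlr* fell to 38.1 and 13.2 CPM in WT (log2 -1.75, SE 0.28, adjusted p = 3.57e-05) and to 50.6, 52.4 and 66.7 CPM in E47KO (log2 -0.91, SE 0.22, adjusted p = 0.0021). *Prlr* was thus above untreated livers with Cort and below them with Dex. Doses and experiments differed, and the difference between the hormones was not tested.

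*Igf1* was at 420.4 and 409 CPM in WT Dex livers (log2 -0.72, SE 0.21, adjusted p = 0.0094) and at 479, 482 and 499.9 CPM in E47KO (log2 -0.58, SE 0.17, adjusted p = 0.0090). *Igfals* was at 55.4 and 49.96 CPM in WT (log2 -1.32, SE 0.21, adjusted p = 3.42e-05) and 44.9, 49.2 and 65.9 CPM in E47KO (log2 -1.004, SE 0.17, adjusted p = 6.24e-05). Both IGF genes lay below every untreated liver of their genotype, and 5 members in each genotype had separate groups, as did 41.5% of all genes in WT and 32.1% in E47KO. *Stat5b* rose, to 75.8 and 68.4 CPM in WT from 43.7, 48.9, 45.1, 43.5 and 49.1 (log2 0.65, SE 0.16, adjusted p = 0.0027), and to 80.1, 93.0 and 119 CPM in E47KO from 40.7 to 52.8, median 47.3 (log2 1.06, SE 0.13, adjusted p = 9.68e-07).

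*Stat5a* (13.1, 20.3 and 23.0 CPM) and *Cux2* (2.33, 0.855 and 1.84 CPM) rose in E47KO Dex livers, by 0.74 (SE 0.26, adjusted p = 0.025) and 1.89 (SE 0.68, adjusted p = 0.030). In WT Dex livers *Stat5a* was at 15.1 and 12.5 CPM (log2 0.35, SE 0.31) and *Cux2* at 0.488 and 0.239 CPM (log2 0.37, SE 1.05), and neither was called. *Cish*, *Socs2* and *Bcl6* were not called in either genotype. *Socs2* stood at 16.8 and 36.4 CPM in WT and 36.7, 16.0 and 22.9 CPM in E47KO. *Cish* was at 6.45 and 31.8 CPM in WT and 12.1, 2.39 and 2.33 CPM in E47KO. *Bcl6* was at 15.9 and 25.7 CPM in WT and 14.8, 36.1 and 35.2 CPM in E47KO.

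The WT *Igf1* call was lost without either Dex liver and the WT *Stat5b* call without Dex replicate 1, where *Prlr* moved to -2.72. In E47KO the *Stat5a* call was lost without Dex replicate 2, Dex replicate 3, untreated replicate 1 or untreated replicate 2. The E47KO *Cux2* call was lost without Dex replicate 1 or 3 or untreated replicate 1, 4, 5 or 6, and it was 2.80 without untreated replicate 2.

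After 1 h of Dex, 2 of the 10 genes differed between floxed controls and untreated WT livers, against 20.4% of all genes (medians -0.02 and -0.04), and both had separate groups, as 22.1% of genes did. *Stat5b* was higher, at 88.1, 82.4 and 58.0 CPM (log2 0.73, SE 0.14, adjusted p = 0.0006), and *Igfals* lower, at 114, 92.2 and 61.5 CPM (log2 -0.56, SE 0.18, adjusted p = 0.024). *Ghr* was at 752, 723 and 682 CPM, inside the untreated range (log2 0.11, SE 0.17). *Igf1* was at 624, 697 and 592 CPM (log2 -0.10, SE 0.17), *Prlr* at 86.5, 74.6 and 82.9 CPM and *Stat5a* at 15.6, 10.2 and 7.57 CPM. *Socs2* spread over 5.31, 13.5 and 55.9 CPM and *Bcl6* over 97.5, 13.4 and 24.6 CPM. The *Igfals* call was lost without floxed replicate 2, floxed replicate 3 or untreated WT replicate 2.

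**Figure D3:**
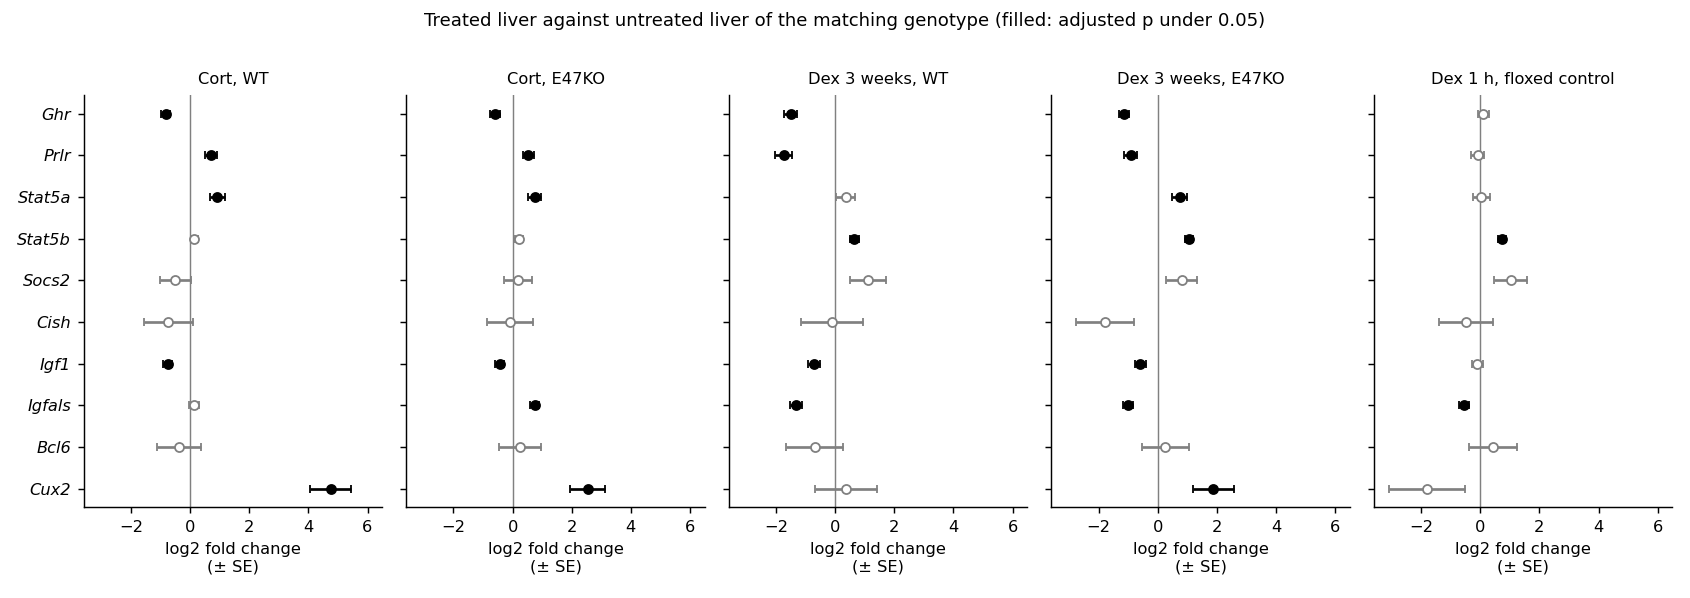
Log2 fold change against untreated liver (x axis, bars are SE) for the 10 genes (y axis) in the Cort, 3-week Dex and 1 h Dex comparisons, filled where adjusted p was under 0.05. *Ghr* and *Igf1* lie below 0 after 3 weeks of either hormone, *Prlr* lies above 0 with Cort and below 0 with Dex, and *Cux2* has the largest fold with Cort.

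None of the 10 genes passed the threshold in any of the 6 genotype comparisons (edgeR), where few genes of any kind did, 0.00752% in Dex liver, 0.0274% in Cort liver, 0.0288% in untreated liver, 0% in liver 1 h after Dex, 0% in WAT and 0.0134% in muscle. At an unadjusted p under 0.05 the counts of members were 2, 2, 1, 1, 0 and 1 in that order, against 3.08, 9.84, 3.63, 3.7, 4.29 and 3.94% of all genes, and DESeq2 called 0, 0, 0, 1, 0 and 0. *Cux2* was below the filter on low counts in untreated livers and in those 1 h after Dex, so 9 genes were tested there. B cell markers moved with genotype. Summed over 6 of them, untreated livers held 6.90 to 25.8 CPM in WT and 2.14 to 10.00 in E47KO, and Cort livers 1.14 to 2.15 and 0.494 to 0.955. Their part in the values of the members was not tested.

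In livers after Dex the E47KO libraries lay above both WT libraries for *Cux2* (log2 2.15, SE 0.60), *Prlr* (1.13, SE 0.41), *Stat5b* (0.43, SE 0.18) and *Igf1* (0.23, SE 0.14), where 15.1% of genes had non-overlapping groups. Their adjusted p was 0.999 in the edgeR fit. The difference of *Prlr* rests on few WT livers, being 2.10 without WT replicate 1 and 0.56 without WT replicate 2. With Cort, *Socs2* (log2 0.90, SE 0.39, adjusted p = 0.49) and *Igfals* (0.30, SE 0.10, adjusted p = 0.39) had positive differences in E47KO, and no member had separate groups, against 6.35% of genes. For *Socs2* the difference was 0.03 with the lower animal numbers only and 1.39 with the higher only. In untreated livers no member had separate groups either, against 0.424% of genes, and *Igfals* had log2 -0.30 (SE 0.11, edgeR adjusted p = 0.97).

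E47LKO livers held 118, 117 and 127 CPM of *Prlr* 1 h after Dex, above the 86.5, 74.6 and 82.9 CPM of floxed controls. The log2 difference was 0.58 (SE 0.09), with an edgeR adjusted p of 0.70 and a DESeq2 adjusted p of 0.0016. Over the 11 alternatives its adjusted p ran from 0.0016 to 1.00. It was the only member with separate groups there, against 8.58% of genes. *Cish* was at 5.11, 1.25 and 3.53 CPM in E47LKO (log2 -2.15, SE 0.99) and *Socs2* at 7.40, 5.91 and 15.9 CPM (log2 -1.34, SE 0.77), and the groups overlapped in both.

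The difference between the E47KO effect under treatment and that without treatment was also tested, and 0 of 10 members passed for Cort or Dex, against 0.00616% of all genes in each. At an unadjusted p under 0.05 there were 2 members for Cort and 1 for Dex, against 6.89 and 4.14% of all genes, and DESeq2 called 0 in both. For Cort the 2 were *Cux2* (log2 difference -2.22, SE 0.91, adjusted p = 0.64) and *Igfals* (0.61, SE 0.22, adjusted p = 0.60). For Dex it was *Prlr* (0.83, SE 0.34, adjusted p = 1.00). Without WT Dex replicate 1 the *Prlr* difference was 1.80, in a fit that leaves a lone WT Dex liver with no spread of its own. WT Dex replicate 1 held 38.1 CPM of *Prlr* and the other WT Dex liver 13.2.

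Sex-biased liver genes, known to follow the growth hormone pattern and STAT5, were taken as 24 male-biased and 27 female-biased genes. With Cort, 23 of the 24 male-biased genes were lower in WT livers and none were higher, where 16.1% of all genes were lower. Of 24 female-biased genes tested, 15 were higher and 0 lower, where 17% of all genes were higher. The median log2 fold changes were -1.81 and 2.23, against 0.01 over all genes. In E47KO livers 17 of the 24 male-biased genes were lower and 0 higher (18% of all genes lower), and 8 of 24 female-biased genes were higher and 3 lower (21% of all genes higher), with medians of -1.39 and 1.07. *Mup20* was the male-biased gene not called in WT. With the lower animal numbers alone, 7 female-biased genes were higher in WT, and the count of lower ones in E47KO was 1. The same count was 1 without untreated E47KO replicate 2.

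*Hsd3b5*, a male-specific steroid dehydrogenase, went from 292 ± 29.2 CPM (SD, n = 5) in untreated WT livers to 1.14 ± 0.94 CPM (SD, n = 4) with Cort (log2 -7.97). The pheromone-carrier gene *Mup7* went from 2506 ± 748 to 21.4 ± 4.37 CPM (log2 -6.87), and the transporter *Slco1a1* from 577 ± 133 to 123 ± 61.0 CPM (log2 -2.23). The glucuronosyltransferases *Ugt2b38* and *Ugt2b1* moved by -6.05 (SE 0.64) and -1.56 (SE 0.17). Among female-biased genes, the estrogen sulfotransferase *Sult1e1* went from 0.301 ± 0.248 to 51.7 ± 34.6 CPM (log2 7.43). *Cyp39a1*, an oxysterol hydroxylase, rose from 18.4 ± 6.06 to 93.0 ± 19.1 CPM (log2 2.34), and *Cyp2b10* and *Cyp2c39* rose by 6.30 (SE 0.91) and 2.67 (SE 0.42). All of these had an edgeR adjusted p of 3.6e-05 or less. *Mup*, *Cyp* and *Ugt* genes are multigene families with near-identical copies, so values of single copies are uncertain.

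With 3 weeks of Dex the male-biased genes were less uniform. In WT livers 11 were lower and 2 higher (16.3% of all genes lower) and 12 of 24 female-biased genes were higher and 1 lower (15.6% of all genes higher), with medians of -0.89 and 1.58. In E47KO livers 10 male-biased genes were lower and 2 higher (18.4% of all genes lower), and 12 female-biased genes were higher and 2 lower (19.4% of all genes higher), with medians of -1.01 and 1.06. The genes higher in the male-biased list were *Elovl3*, a fatty acid elongase, and *Mup20* in both genotypes. *Cyp39a1* was at 367 ± 109 CPM (SD, n = 2) in WT Dex livers against 18.4 ± 6.06 untreated (log2 4.31), and *Sult1e1* at 483 ± 114 against 0.301 ± 0.248 CPM (log2 10.65). *Hsd3b5* was at 16.8 ± 4.70 CPM in WT and 11.9 ± 9.63 CPM in E47KO Dex livers (log2 -4.11 and -4.15). Without either WT Dex liver the WT counts of male-biased genes were 7 lower and 1 higher, and that of lower female-biased genes was 0 without WT Dex replicate 2 or untreated WT replicate 2. Without E47KO Dex replicate 1, E47KO Dex replicate 2 or untreated E47KO replicate 2 the count of lower female-biased genes in E47KO was 0, 1 and 1. After 1 h of Dex, 1 of 24 male-biased genes was higher and 0 lower (10% and 10.4% of all genes), and 2 female-biased genes were higher and 1 lower. The 2 were 1 or 0 without any 1 floxed library and 1 without any of untreated WT replicates 2 to 5.

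**Figure D4:**
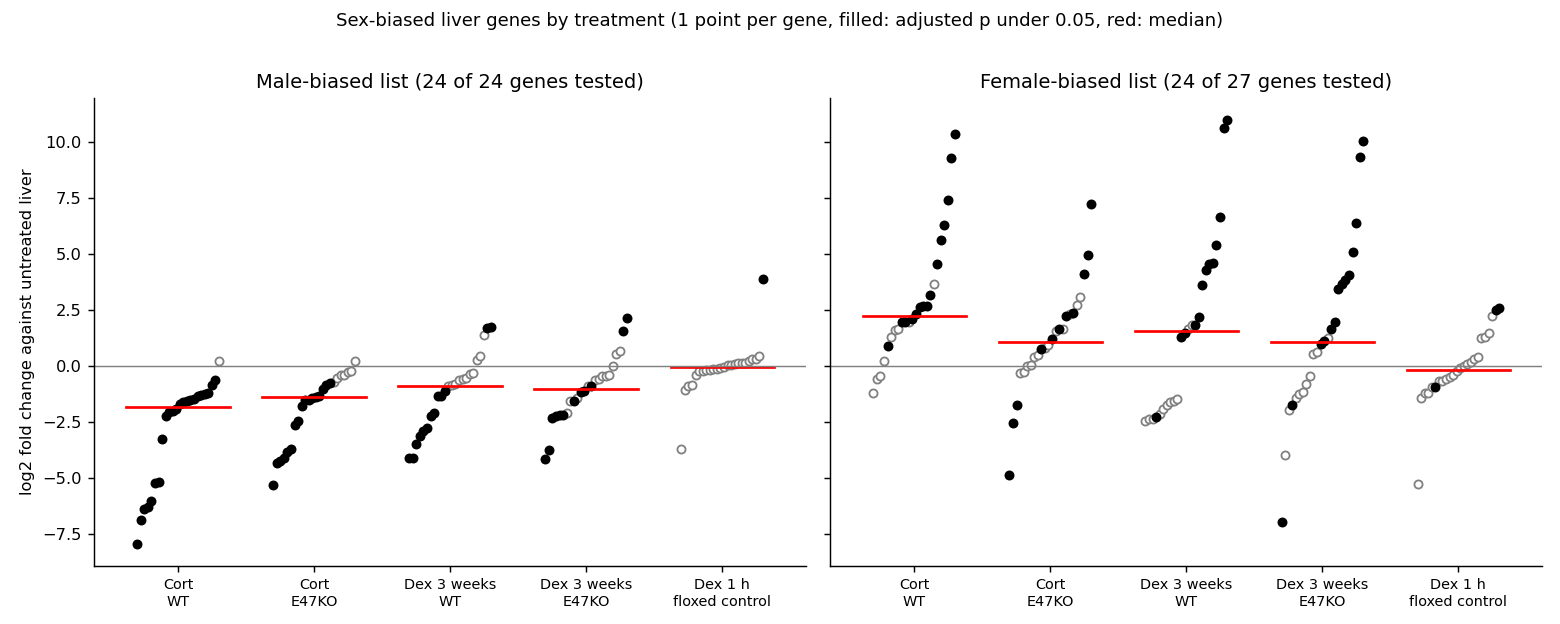
Log2 fold change against untreated liver (y axis) of 24 male-biased and 24 female-biased genes by comparison (x axis, points are genes, filled where adjusted p was under 0.05, red lines are medians). In WT livers with Cort the male-biased median is -1.81 and the female-biased median 2.23.

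No gene of these 2 lists was called between genotypes (edgeR), and the lists themselves were not tested. Alternatives called a few. In Cort livers DESeq2 called 3 male-biased genes higher and 1 female-biased gene lower in E47KO, the replicate block 1 and 1, and the fits without a filter and with the animal number range 1 male-biased gene higher each. In Dex livers 2 male-biased genes were lower without a filter and 1 with DESeq2, and in muscle 1 female-biased gene was higher with either. In Cort livers 20 of 23 male-biased and 4 of 21 female-biased genes had a positive log2 difference of E47KO against WT, with medians of 0.43 and -0.89 against 0.00 over all genes and 8 and 6 genes at an unadjusted p under 0.05. In untreated livers the signs were the other way, with 1 of 24 male-biased and 14 of 16 female-biased genes positive (medians -0.26 and 0.82, 3 and 2 genes at an unadjusted p under 0.05). In E47LKO livers 1 h after Dex, 2 of 24 and 12 of 16 were positive (medians -0.45 and 0.83, 4 and 6 genes). In Dex livers 10 of 24 and 9 of 18 were positive (medians -0.16 and 0.07, 3 and 3 genes). Unadjusted p was under 0.05 for 9.84% of all genes in Cort, 3.63% in untreated, 3.7% in E47LKO and 3.08% in Dex livers. No share of all genes is given for the signs, which were not tested. Genes of a list were measured in the same few livers, so their signs are not independent of each other. A single liver can move many of them. In the test of the E47KO effect with Cort minus that without treatment, *Hsd3b5* was the 1 gene called of 16227 tested. It was singled out after its values were seen. Its CPM lay between 15.7 and 71.8 in E47KO Cort livers and between 0.266 and 2.25 in WT Cort livers (log2 difference of effects 5.33, SE 0.71, adjusted p = 0.00078).

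Other genes of the pathway were taken as 3 lists, whose counts are given beside the shares of all genes and were not tested. Of all genes, 17% were higher and 16.1% lower with Cort in WT, 21 and 18% with Cort in E47KO, 15.6 and 16.3% with Dex in WT and 19.4 and 18.4% with Dex in E47KO. Of 23 kinases, phosphatases, adaptors and SOCS genes, 4 were higher and 3 lower with Cort in WT and 6 higher and 0 lower in E47KO, and with Dex 6 higher and 1 lower in WT and 6 higher and 2 lower in E47KO. With Dex the phosphatase gene *Ptpn2* rose in WT from 10.3 ± 1.35 to 18.9 ± 1.18 CPM (log2 0.87). The adaptor gene *Grb14* rose by 0.82 (SE 0.15) and the insulin receptor substrate gene *Irs2* by 2.41 (SE 0.48). In the IGF list, 12 genes, *Igfbp2* was at 284 ± 195 CPM in untreated WT livers and 41.2 ± 17.0 with Cort (log2 -2.79). *Igfbp7* was at 37.5 ± 8.79 and 18.6 ± 1.08 CPM in the same groups (log2 -1.01). *Igfbp1*, which binds IGF1 and is a classical target of GR and fasting, was at 1608 ± 223 CPM in WT Dex livers against 23.4 ± 23.7 CPM untreated (log2 6.11), and at 674 ± 275 CPM 1 h after Dex (log2 4.85). With Cort, *Igfbp1* was at 24.5 ± 9.97 CPM in WT livers, near the untreated level. E47KO livers held 20.1 ± 11.1 CPM of it with Cort and 47.3 ± 34.0 untreated. Counts in the IGF list were 2 higher and 2 lower (Cort, WT), 1 and 2 (Cort, E47KO), 1 and 1 (Dex, WT) and 2 and 2 (Dex, E47KO). Of 7 growth hormone responsive liver genes, *Lifr*, the leukemia inhibitory factor receptor, fell with Cort in WT from 398 ± 116 to 107 ± 10.5 CPM (log2 -1.90), and *Egfr* had log2 -2.12 (SE 0.40). The hepatokine *Fgf21*, which was also counted among the fasting genes, rose by 5.05 (SE 0.57). The fatty acid transporter *Cd36* rose by 2.82 (SE 0.45). Counts were 2 higher and 2 lower for WT with Cort and 1 and 2 for E47KO, and 1 higher and 3 lower for WT with Dex and 1 and 5 for E47KO. Counts of these small lists changed by more than 1.5 times when one library was left out in most comparisons.

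After 3 weeks of Dex, tissues were compared on a scale set over the 14 libraries of that treatment. Of the 10 genes 7 differed between liver and WAT, where 75.4% of all genes did (medians 1.17 and -0.19), and 9 between liver and muscle, where 76.4% did (medians 0.86 and -0.11). *Ghr* was lower in liver than in WAT, at 335 and 214.9 CPM in WT liver, 217, 433 and 422 in E47KO liver, 1211 and 1221 in WT WAT and 1195 and 1005 in E47KO WAT (log2 -1.88, SE 0.22). The calls between tissues had an edgeR adjusted p of 0.037 or less. *Ghr* was higher in liver than in muscle (161, 202 and 172, 194, 204 CPM, log2 0.75, SE 0.20). *Prlr* was near absent from muscle, at 0.101 and 0.536 CPM in WT and 0.622, 0.459 and 0.477 CPM in E47KO, against 15.2 to 76.9 in liver (log2 6.79, SE 0.40). WAT held 16.3 to 26.5 CPM of it, so WT liver replicate 2 at 15.2 CPM lay below all 4 WAT libraries (liver against WAT log2 1.04, SE 0.29).

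*Igf1* was highest in liver (474 to 577 CPM), with 102 to 125 in WAT and 7.07 to 20.9 in muscle (log2 2.17, SE 0.25, and 5.35, SE 0.28). *Igfals* was at 52.8 to 76.0 CPM in liver, 3.48 to 5.15 in WAT and 1.66 to 3.52 in muscle (log2 3.83, SE 0.21, and 4.66, SE 0.21). *Stat5b* was higher in muscle (254 to 411 CPM) than in liver (79.1 to 138), and lowest in WAT (24.4 to 28.3). Its log2 differences were 1.91 (SE 0.13) for liver against WAT and -1.77 (SE 0.12) for liver against muscle. *Bcl6* was higher in muscle (61.3 to 143 CPM) than in liver (log2 -1.75, SE 0.29), and *Socs2* lower in both tissues (log2 1.79, SE 0.32, and 1.11, SE 0.30). *Cux2* gave log2 1.30 (SE 0.45) against WAT and -1.04 (SE 0.39) against muscle, and *Cish* differed in neither (log2 0.00, SE 0.61, and 0.96, SE 0.68). *Stat5a* gave log2 0.08 (SE 0.15) and 0.36 (SE 0.14).

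**Figure D5:**
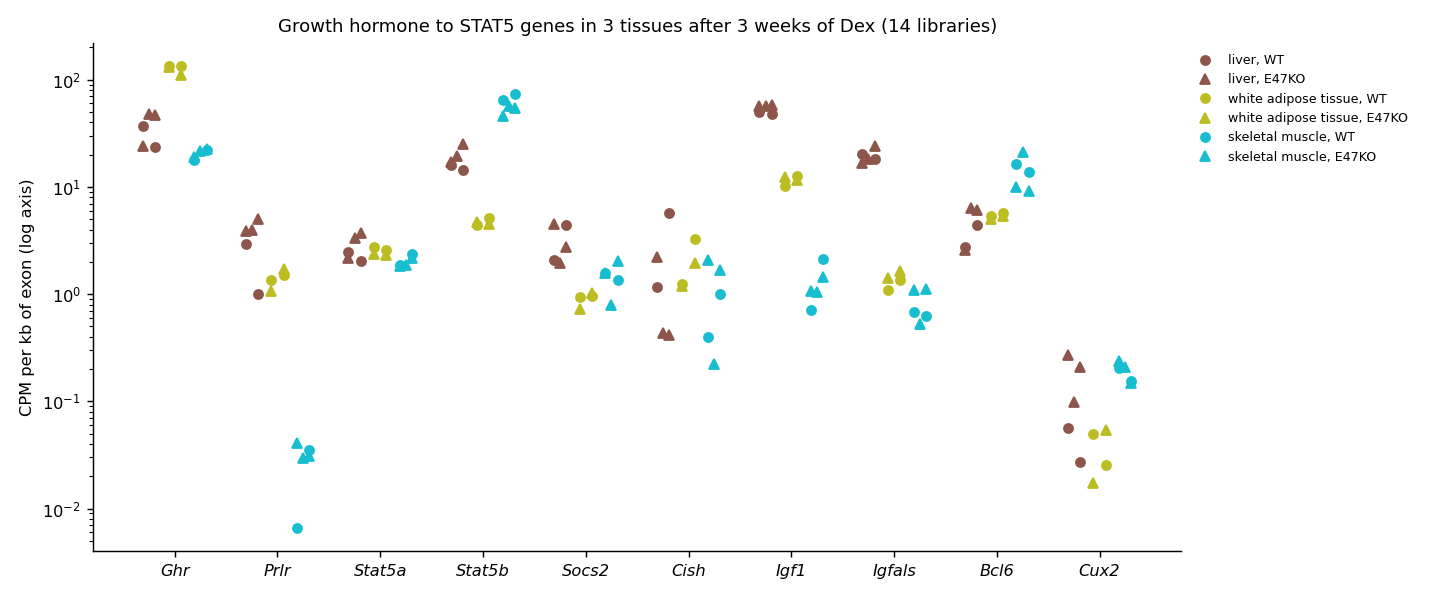
Level of the 10 genes (x axis) in CPM per kb of exon (log y axis) in liver, WAT and muscle after 3 weeks of Dex, with 1 point for each of 14 libraries (colour by tissue, shape by genotype). *Igf1* and *Igfals* are highest in liver, *Ghr* in WAT, and *Stat5b* and *Bcl6* in muscle.

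The liver against WAT call of *Prlr* was lost without WT liver replicate 1, and that of *Cux2* without WT liver replicate 1, WT WAT replicate 2 or E47KO WAT replicate 2. The liver against muscle call of *Stat5a* was lost in 7 of 14 alternatives, among them those without WT liver replicate 1, E47KO liver replicates 2 or 3, WT muscle replicate 1 or E47KO muscle replicates 1 or 2, and that of *Cux2* without WT liver replicate 2, WT muscle replicate 1 or E47KO muscle replicate 1. *Prlr* was at 7.56 without WT muscle replicate 2. That muscle held 251 CPM of hepatocyte markers, against 1.56 to 17.1 in the other muscles. Adipocyte markers were at 194 to 314 CPM in WT and 626 to 785 CPM in E47KO muscle, and their part in the muscle values was not tested. In muscle, *Stat5b* was at 356 and 411 CPM in WT and 254, 313 and 302 CPM in E47KO, so the groups were separate (log2 -0.39, SE 0.12, adjusted p = 1.00, with 16.9% of genes separate). In WAT 4 members had separate groups, against 33% of genes.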

How the data were processed

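Poly(A) RNA of 39 mouse libraries was sequenced, and the authors mapped reads to mm10 with STAR 2.4.2a and counted them per Ensembl gene. The deposited values are raw read counts with no scaling by the authors, in a separate file for each library. The labels also name HTSeq, and the closing lines of the files after 3 weeks of Dex carry names used by that program, so the counter of those files is uncertain. The labels call these 14 libraries unstranded and the other 25 stranded. In the Cort libraries the larger strand column held about 50.1% of strand-resolved counts, so the unstranded column was used throughout. A further 6 tables hold the study's DESeq2 results (fold changes, p-values and 39 columns of scaled counts per library) and were not used. Lines that name no gene stayed out of library sizes and tests (20.8 to 36.8% of entries). Groups came from the sample titles. Libraries held 15513941 to 54560884 counts in genes. All 53 replicate pairs differed by more than sampling noise (lowest chi-square per degree of freedom 14.5).

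Counts were tested with edgeR 4.0.16 (R 4.3.3), TMM, filterByExpr (minimum count 10) and the quasi-likelihood F test, two-sided, with Benjamini-Hochberg adjustment over all genes and a threshold of 0.05. Genotypes were compared within each experiment. Treatments were compared in a fit over 30 livers, and tissues in a fit over 14 libraries. The SE is the log2 fold change divided by the square root of F. The alternatives were other size factors, no filter, DESeq2 1.42.0, the strand column, blocks and leaving out each library. Keeping only the Cort livers of the lower or higher animal numbers was chosen after seeing the data, as was the liver minus muscle difference. Same-numbered replicates were not from the same animal by the labels, and the correlation of their deviations was not above 0.1 in every pair of any experiment. The scripts were tested on simulated data.

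The genes and lists were chosen with earlier results of these data known, so their counts are no independent evidence. The text names all 10 members and, per list and comparison, at most 5 called genes whose groups do not overlap, lowest adjusted p first. For *Igf1*, *Socs2*, *Bcl6* and *Cux2* it names the 3 genes most alike. Some genes that this rule would name are not reported here. Counting error is small at these depths beside the spread between mice, except for genes near 0. Promoter letters were searched in RefSeq windows of 250 bases.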

Additional observations from a re-analysis of the deposited data

Results flagged for a closer look

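Of 40 sets of member values in groups of 4 or more livers, 4 held 1 library far from the rest, each time the highest. The limit used would flag about 1 in 20 independent sets of normally spread values. These sets are on the CPM scale and share livers, so that rate need not hold here. *Stat5a* was at 32.0 CPM in WT Cort replicate 1, where the other 3 livers held 15.7 to 17.4 CPM. *Bcl6* was at 66.5 CPM in WT Cort replicate 2 and at 65.6 CPM in untreated E47KO replicate 1. *Cux2* was at 1.52 CPM in untreated E47KO replicate 2, where the next was 0.383 CPM.

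The E47KO effect on *Stat5b* after 3 weeks of Dex had opposite signs in 2 tissues, with every library separated. It was 0.43 on the log2 scale in liver and -0.39 in muscle. A joint fit over 14 libraries, chosen after the data were seen, gave a difference of 0.84 (SE 0.24, edgeR unadjusted p = 0.0043, adjusted p = 1.00), and 0 of 18113 genes were called in it. That fit takes the libraries as independent, although 3 of the mice gave both liver and muscle.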

How the results depend on the processing

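No direction of a called member turned under any alternative run. Over the alternatives, members called or named in comparisons between 2 groups had 700 fold changes, of which 651 kept their side of the threshold, 48 called ones lost it and 1 gained it. The differences of E47KO effects are not among these. In the one with Dex, *Prlr* passed only without WT Dex replicate 1, where a lone WT Dex liver is left with no spread of its own. Members past the threshold numbered 3 to 6 (Cort, E47KO), 4 to 5 (Cort, WT), 5 to 7 (Dex, E47KO), 3 to 5 (Dex, WT), 1 to 2 (1 h Dex), 5 to 7 (liver against WAT) and 7 to 9 (liver against muscle) with 1 library left out. With Cort livers of the lower animal numbers only, 3 members and 2132 genes were called in WT, and with the higher numbers only, 3 members and 4063 genes in E47KO. The cause was not tested.

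Counts over all genes moved more where few were called. Without a filter on low counts they were 62 in Dex liver, 13 in Cort liver, 8 in untreated liver, 1 for 1 h Dex, 6 in WAT and 37 in muscle, and with DESeq2 24, 270, 11, 6 (with 1 member), 37 and 93, from 1, 4, 4, 0, 0 and 2. With the animal number range as a covariate they were 0 in Dex liver, 67 in Cort liver and 4 in muscle, and with the higher Cort numbers only 1. For the differences of E47KO effects, DESeq2 called 16 for Cort and 2 for Dex, the animal number range 20 and 2, and the lower Cort numbers 4. Leaving out 1 library gave 0 to 7 genes in Dex liver, 1 to 6 in Cort liver, 3 to 4 in untreated liver, 0 to 1 for 1 h Dex, 0 to 333 in WAT, 1 to 8 in muscle, 1 to 2 and 0 to 19 (0 to 1 member) for the differences with Cort and Dex, 4299 to 5202 (Cort, WT), 5169 to 6473 (Cort, E47KO), 2757 to 5253 (Dex, WT), 4384 to 6179 (Dex, E47KO), 1959 to 3438 (1 h Dex against untreated), 13175 to 13556 (liver against WAT) and 13413 to 13667 (liver against muscle).

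The replicate block called 0 genes in Dex liver, 29 in Cort liver, 2 in untreated liver, 0 for 1 h Dex and 1 in muscle, and no member. Deviations of same-numbered libraries correlated at -0.506 to -0.058 in Dex liver, -0.0159 to 0.716 in Cort liver and 0.0466 to 0.787 in untreated liver. They ran from 0.0241 to 0.219 for 1 h Dex and from -0.0907 to 0.192 in muscle. Some pairs deviated together, at 0.787 and 0.505 for untreated replicates 1 and 5 and 0.716 and 0.539 for Cort replicates 1 and 3. Whether such pairs share a batch was not tested. For WAT alone no paired fit could be made, because its groups share only replicate number 2.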

Other observations

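Genes whose level ran most like a member over the 30 livers were listed by Pearson correlation of log2 CPM, with the correlation after removal of group means beside it. These are descriptions over libraries that share experiments. For *Igf1* they were *C8a*, a complement component (0.87, 0.61 within groups), *Gstp-ps* (0.87, 0.65) and *Trip4* (0.87, 0.68). For *Socs2* they were *Wsb1*, also a SOCS-box gene (0.76, 0.63), *5730420D15Rik* (0.74, 0.72) and *Gnl3* (0.72, 0.71). For *Bcl6* they were *Gm42568* (0.59, 0.65), *Gm43848* (0.58, 0.69) and *Poc1b* (0.54, 0.59). For *Cux2*, *Hps6* (0.85, 0.57) and *Kcnk4* (0.84, 0.26) were the closest.

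*Stat5b* and *Igfals* had r = 0.67 within groups (permutation test, adjusted p = 0.0505 over 45 pairs), just short of the threshold. The pair also failed by Spearman (rho = 0.60, permutation test, adjusted p = 0.0735). Within experiments r was 0.65 in untreated livers, -0.21 with Cort and 0.95 at 1 h after Dex.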
